A study of Mus musculus with 6 samples.

Results

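The genes described here form the core machinery of apoptosis: caspases, the factors that mitochondria release and the scaffold that they activate, the inhibitors of apoptosis, the BCL2 family and the death receptor arm. They were taken by name from a list of 38 gene symbols, without a filter on their values. That list was chosen with earlier results of these data known. Of the 38, 35 were read here through the brightest probe set that carries that symbol alone, out of 19938 genes read in the same way, while Bax, Ripk1 and Trp53 were not analysed here. RNA came from whole hippocampus of male C57BL/6J mice, dissected at 70 days of age. As pups, both groups were injected subcutaneously 2 times on postnatal day 4 and again 2 times on postnatal day 7, with ethanol at 2.5 g/kg per injection or with saline alone. Littermates were divided between the groups, and RNA of 3 males that were not littermates of each other was pooled for each Affymetrix Mouse Gene ST array, giving 3 saline pools and 3 ethanol pools, or 9 mice per group. Each pool is thus an average of its animals, and only males, a single strain and a single age were measured.

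Apoptosis dismantles a cell from within. In the mitochondrial pathway, proteins with only a BH3 domain neutralize the BCL2 guardians and let BAK1 and its relative open the outer mitochondrial membrane, cytochrome c leaks out, and APAF1 assembles into the apoptosome that activates caspase-9. Death receptors at the cell surface activate caspase-8 through FADD instead, and the inhibitors of apoptosis restrain both routes. Ethanol during synaptogenesis is known to set off a wave of neuronal apoptosis within hours of exposure. Cell death after the injections was not measured here. The comparison asks which of these genes differed in the adult hippocampus, long after the exposure.

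Values are log2 expression after RMA, so that a difference of 1 is a doubling. The 10 neuron markers of the hippocampus had means of 8.26 to 12.96, and the mean of this marker list differed by -0.0097 to 0.0379 from the saline mean in the 6 pools. The receptor level is set at 5.36, below which lie 95% of the means of 1178 genes for olfactory or vomeronasal receptors, which belong to the nose. Markers of the thalamus and the choroid plexus stood apart in the ethanol pools. In ethanol pools 1, 2 and 3 the thalamus list exceeded its saline mean by 0.77, 0.29 and 0.14, and 12 of its 16 markers were higher past the unadjusted threshold, a limma p under 0.05 before correction for multiple testing. The choroid plexus list lay at 1.07, -0.28 and 0.66 in the same pools, with 3 of 16 markers higher past that threshold. All marker lists were chosen with earlier results of these data known. The thalamus list holds Tcf7l2, Synpo2 and Vipr2, which the paper reports as higher after ethanol, so its count is not independent of those results. Oligodendrocyte markers lay at -0.07, -0.18 and -0.05, with 4 of 11 lower, while 0 of 8 astrocyte and 0 of 7 endothelial markers passed in limma. The part of other cells in the differences given next was not tested. In whole tissue, fewer cells of a type and less RNA per cell cannot be told apart.

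At an unadjusted p under 0.05 in limma, 4 of 35 apoptosis genes (11.4%) differed, where 5.22% of all genes did. One of them was higher (2.8% of all genes were), namely Casp12, and 3 were lower (2.41% of all genes were), namely Casp9, Apaf1 and Birc3. None of the 4 exceeded 1.2-fold, which together with the unadjusted threshold was met by 0.276% of all genes. After Benjamini-Hochberg adjustment over the 23410 probe sets tested, 0 of 35 passed, as did 0.0% of all genes, and the lowest adjusted p among the 35 was 0.931 in limma. The saline and ethanol pools did not overlap in 7 of 35 genes (20.0%), where 10.4% of all genes showed this. In 2 genes, Casp12 and Bnip3l, the ethanol pools lay above (5.35% of all genes), and in 5, Casp9, Apaf1, Birc3, Bad and Bnip3, they lay below (5.09% of all genes). These shares rest on few genes and no test was made of the list as a whole. A second probe set of Bnip3 had pools that overlapped, with a log2 change of 0.08. The ethanol mean was above the saline mean in 17 of the 35 genes and below it in 18, with a median log2 change of -0.0013, against 0.00014 over all genes.

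**Figure D1:**
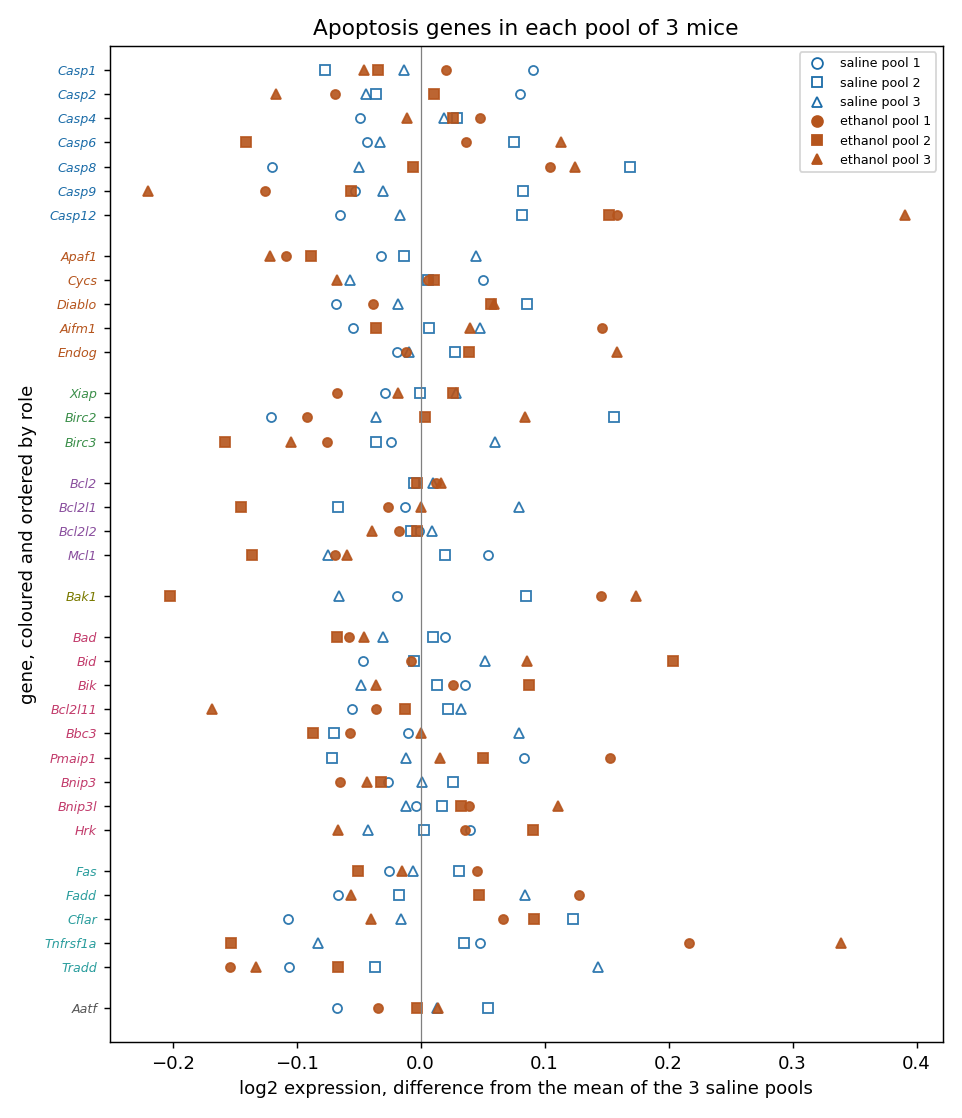
Each of the 35 apoptosis genes by pool, plotted as log2 expression minus the gene's saline mean. Genes are ordered by role, saline pools are open and ethanol pools filled. Ethanol pool 3 stands out for Casp12, at 5.29 against 5.06 and 5.05 in the other ethanol pools, while the 6 symbols of Bcl2 nearly coincide.

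The upstream sequences are shown for the 4 genes past the unadjusted threshold, none of which passed after adjustment. They differ in their content of G and C and in the short letter matches given below. The sequences are those of RefSeq on GRCm38.p6, the 250 bases before the annotated start, read 5′ to 3′ on the strand of the gene. Capitals mark a GC box (GGGCGG), the letters TATAA or a CCAAT box (CCAAT), each searched on both strands. Casp12 lies on the plus strand at chr9:5345226-5345475, Casp9 on the plus strand at chr4:141793362-141793611, Apaf1 on the minus strand at chr10:91082744-91082993 and Birc3 on the minus strand at chr9:7873171-7873420.
Casp12: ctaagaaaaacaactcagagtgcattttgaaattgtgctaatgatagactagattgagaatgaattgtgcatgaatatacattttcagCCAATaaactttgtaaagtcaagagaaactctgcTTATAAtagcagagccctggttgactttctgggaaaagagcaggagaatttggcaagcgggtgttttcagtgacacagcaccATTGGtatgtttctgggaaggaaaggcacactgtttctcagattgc
Casp9: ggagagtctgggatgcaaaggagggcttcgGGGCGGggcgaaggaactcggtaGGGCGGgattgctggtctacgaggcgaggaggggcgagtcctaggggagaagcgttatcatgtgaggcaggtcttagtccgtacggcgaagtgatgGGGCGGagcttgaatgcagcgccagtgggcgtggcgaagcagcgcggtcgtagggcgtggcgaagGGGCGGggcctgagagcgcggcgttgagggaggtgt
Apaf1: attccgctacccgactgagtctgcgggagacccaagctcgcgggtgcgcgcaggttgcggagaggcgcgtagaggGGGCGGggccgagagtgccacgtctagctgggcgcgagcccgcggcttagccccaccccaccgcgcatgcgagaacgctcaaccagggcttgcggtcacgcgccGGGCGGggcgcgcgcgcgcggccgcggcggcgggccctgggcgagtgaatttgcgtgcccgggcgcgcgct
Birc3: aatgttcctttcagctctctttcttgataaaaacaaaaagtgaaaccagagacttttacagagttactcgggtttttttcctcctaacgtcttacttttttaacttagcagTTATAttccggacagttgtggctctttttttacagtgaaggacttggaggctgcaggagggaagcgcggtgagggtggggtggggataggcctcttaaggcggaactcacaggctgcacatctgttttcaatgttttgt
The windows of Casp9 and Apaf1, partners in the apoptosome, hold 66.0% and 75.6% G and C, with 4 GC boxes in Casp9 and 2 in Apaf1. Those of Casp12 and Birc3 hold 39.2% and 43.6%, with no GC box in either, and both carry the letters TATAA on at least one strand. Casp12 also has 2 CCAAT boxes. Of all 32851 windows of this length, 32.7% hold a GC box, 22.8% TATAA and 33.8% CCAAT. A window was found for 31 of the 35 genes, all but Bik, Bnip3l, Pmaip1 and Tradd, of which 20 hold a GC box, 5 TATAA and 11 CCAAT in at least 1 window, against 35.4%, 25.8% and 37.5% of 27025 genes. These matches describe the letters alone.

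Past the unadjusted threshold, 1 of the 7 caspases was higher and 1 was lower. The higher gene was Casp12, a caspase of the endoplasmic reticulum that belongs to the inflammatory branch by sequence, read by probe set 10583008. It stood at 4.83, 4.98 and 4.88 in saline pools 1, 2 and 3 and at 5.06, 5.05 and 5.29 in ethanol pools 1, 2 and 3. All 3 ethanol pools lay above the highest saline pool, and ethanol pool 3 was the highest. The log2 change was 0.23 ± 0.07 (SE), or 1.18-fold with a 95% interval from 1.05 to 1.32, and the adjusted p was 0.931 in limma. All 6 values lay below the receptor level, where the array separates a low transcript poorly from background. Without ethanol pool 3 the change was 0.16 and still past the unadjusted threshold. Under the methods' t-test, the study's ANOVA in its form for 2 groups, Casp12 missed that threshold.

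Casp1 and Casp4, which process inflammatory cytokines or sense bacterial lipopolysaccharide, neighbour Casp12 on chromosome 9 in the order Casp1, Casp4, Casp12, with no other protein-coding gene between them. Both also lay below the receptor level. Casp1 had values of 4.97 to 5.14 in saline pools and 4.999 to 5.07 in ethanol pools, and Casp4 of 4.47 to 4.55 and 4.51 to 4.57. The pools of both genes overlapped, with log2 changes of -0.02 ± 0.05 and 0.02 ± 0.04 (SE).

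Casp9, which encodes the caspase that apoptosomes activate first, was read by probe set 10510034. It stood at 7.64, 7.78 and 7.66 in the saline pools and at 7.57, 7.64 and 7.47 in the ethanol pools. The ethanol pools lay below the saline pools, but ethanol pool 2 and saline pool 1 nearly met. The log2 change was -0.13 ± 0.06 (SE), 0.911-fold with a 95% interval from 0.834 to 0.996 (limma, adjusted p = 0.931). It passed in 7 of 17 alternative settings and missed the threshold in the other 10, with changes from -0.15 to -0.09. These were the methods' t-test, median centring, quantile normalization, all rows of the value table, an intensity trend, array weights, and the fits without saline pool 2, saline pool 3, ethanol pool 1 or ethanol pool 3.

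Casp8, the initiator of the death receptor pathway, had the largest spread within groups among the caspases, with a pooled SD of 0.118. It stood at 7.75, 8.04 and 7.82 in the saline pools and at 7.98, 7.87 and 7.996 in the ethanol pools, with the highest value in saline pool 2. Its change was 0.07 ± 0.07 (SE), and it was 0.16 and past the unadjusted threshold without saline pool 2. Casp2, a caspase of the DNA damage response, and Casp6, an effector caspase, had changes of -0.06 ± 0.05 and 0.00 ± 0.07.

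Of the 5 apoptosome and mitochondrial genes, Apaf1 was lower past the unadjusted threshold and the other 4 did not pass. Apaf1, the scaffold on which caspase-9 is activated, was read by probe set 10371846 and stood at 7.00, 7.02 and 7.08 in the saline pools and at 6.92, 6.94 and 6.91 in the ethanol pools. The ethanol pools lay close together and below every saline pool. The log2 change was -0.11 ± 0.04 (SE), 0.929-fold with a 95% interval from 0.873 to 0.989 (limma, adjusted p = 0.931). It did not pass with the replicate number as a block, without saline pool 3, ethanol pool 1 or ethanol pool 3, or with an intensity trend in limma, which left Casp12 as the one gene past the unadjusted threshold.

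Cycs, which encodes cytochrome c, had a change of -0.02 ± 0.05 (SE) in its brightest probe set, at a mean of 12.26. Cytochrome c has many processed pseudogenes, so its 3 probe sets may share signal, and the changes of the other 2 were -0.05 and -0.04. Diablo, which encodes the SMAC protein that frees caspases from their inhibitors, had a change of 0.03 ± 0.05. Aifm1 and Endog, whose products cut or condense DNA without caspases, had changes of 0.05 ± 0.05 and 0.06 ± 0.05. The largest spread in this group was that of Aifm1, at 8.77, 8.83 and 8.87 in the saline pools and 8.97, 8.78 and 8.86 in the ethanol pools, with ethanol pool 1 the highest.

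Of the 3 inhibitors of apoptosis, Birc3 was lower past the unadjusted threshold. BIRC3 is a ubiquitin ligase that acts with the receptors of tumour necrosis factor. Its probe set 10590801 stood at 5.60, 5.58 and 5.68 in the saline pools and at 5.55, 5.46 and 5.52 in the ethanol pools. The groups did not overlap, although the highest ethanol pool, pool 1, came close to the lowest saline pool, pool 2, and the gene lay just above the receptor level. The log2 change was -0.11 ± 0.04 (SE), 0.925-fold with a 95% interval from 0.862 to 0.992 (limma, adjusted p = 0.931). It did not pass without saline pool 3, ethanol pool 2 or ethanol pool 3, nor with an intensity trend.

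Birc2, its close relative, is the next protein-coding gene on chromosome 9. Its brightest probe set stood at 7.37, 7.64 and 7.45 in the saline pools and at 7.39, 7.49 and 7.57 in the ethanol pools. The saline pools alone spanned more than the ethanol pools, and the change was -0.00 ± 0.08 (SE). Xiap, the direct inhibitor of caspases, had a change of -0.02 ± 0.04.

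None of the 4 guardians of the BCL2 family passed the unadjusted threshold. Bcl2 stood at 8.85, 8.85 and 8.86 in the saline pools and at 8.87, 8.85 and 8.87 in the ethanol pools. Its SD within groups, pooled over both, was 0.00947, lower than in all but 0.241% of genes, and its change was 0.01 ± 0.04 (SE). The SE is larger than this SD would give because limma draws each gene's variance toward that of all genes. Bcl2l2, which encodes BCL-W, was nearly as even, with an SD of 0.0144 and a change of -0.02 ± 0.04. Bcl2l1, which encodes BCL-XL, the main survival protein of mature neurons, stood at 8.75, 8.69 and 8.84 in the saline pools and at 8.73, 8.61 and 8.76 in the ethanol pools. It had the largest spread of the 4, its groups overlapped, and its change was -0.06 ± 0.06. Mcl1, a guardian with a short-lived protein, had values of 9.00 to 9.13 in saline and 8.94 to 9.01 in ethanol pools, and a change of -0.09 ± 0.05. Without saline pool 3 the change of Mcl1 was -0.125 and past the unadjusted threshold.

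Bak1, which forms pores in the outer mitochondrial membrane, differed between ethanol pools more than most genes. It stood at 6.73, 6.83 and 6.68 in the saline pools and at 6.89, 6.54 and 6.92 in the ethanol pools, with ethanol pool 2 below and the other two above every saline pool. Its change was 0.04 ± 0.10 (SE), and its pooled SD of 0.158 lay at the 97.3th percentile of all genes. Without ethanol pool 2 the change was 0.16 and past the unadjusted threshold, and without ethanol pool 1 or ethanol pool 3 it was -0.01 or -0.03.

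None of the 9 BH3-only and related genes passed the unadjusted threshold, 5 with an ethanol mean above and 4 with one below that of saline. Bnip3l, which encodes the mitophagy receptor NIX, stood at 12.37, 12.39 and 12.36 in the saline pools and at 12.41, 12.41 and 12.48 in the ethanol pools. The ethanol pools lay above, with a change of 0.06 ± 0.04 (SE), and a second probe set also had no overlap and a change of 0.04. Bnip3, the related mitophagy receptor, stood at 11.07, 11.12 and 11.10 in saline and at 11.03, 11.06 and 11.05 in ethanol pools. Its brightest probe set had a change of -0.05 ± 0.04, but its second probe set had one of 0.08, so that the direction depends on the probe set. Bad, which binds BCL-XL when growth factor signals cease, stood at 6.20, 6.19 and 6.15 in the saline pools and at 6.13, 6.12 and 6.14 in the ethanol pools. The gap between its groups was narrow, its change was -0.06 ± 0.04, and Bad passed in the methods' t-test alone.

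Bid, which carries the death receptor signal to mitochondria, had the largest spread of this group. It stood at 6.52, 6.56 and 6.62 in the saline pools and at 6.56, 6.77 and 6.65 in the ethanol pools, with ethanol pool 2 the highest and a change of 0.09 ± 0.06 (SE). Without ethanol pool 1 the change of Bid was 0.145 and past the unadjusted threshold, and without ethanol pool 2 it was 0.04. Hrk, a BH3-only gene of neurons, had a change of 0.02 ± 0.05 at a mean of 8.72. Bcl2l11 (BIM), Bbc3 (PUMA), Pmaip1 (NOXA) and Bik, which other tissues raise under stress or loss of growth factors, lay below the receptor level in both groups, with changes from -0.07 to 0.07.

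None of the 5 genes of the death receptor arm passed the unadjusted threshold, yet it held the gene with the largest spread of all 35. Tnfrsf1a, the main receptor of tumour necrosis factor, stood at 6.97, 6.95 and 6.84 in the saline pools and at 7.14, 6.77 and 7.26 in the ethanol pools. Ethanol pools 1 and 3 lay above and ethanol pool 2 below every saline pool, as for Bak1. The change was 0.13 ± 0.11 (SE), and the pooled SD of 0.188 lay at the 98.5th percentile of all genes. Without ethanol pool 2 its change was 0.28 and past the unadjusted threshold, with an adjusted p of 0.463 in limma. Without ethanol pool 3 it was 0.03. Choroid plexus markers, at 1.07, -0.28 and 0.66, also had ethanol pool 2 lowest but pool 1 rather than pool 3 highest, as had markers of meninges and fibroblasts, at 0.25, -0.10 and 0.14, with 0 of these 8 past the unadjusted threshold. Microglia markers lay at -0.08, -0.03 and 0.01, with saline pools from -0.0932 to 0.0795 and 0 of 13 markers past the threshold. The part of these cells in the values of Tnfrsf1a and Bak1 was not tested.

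**Figure D2:**
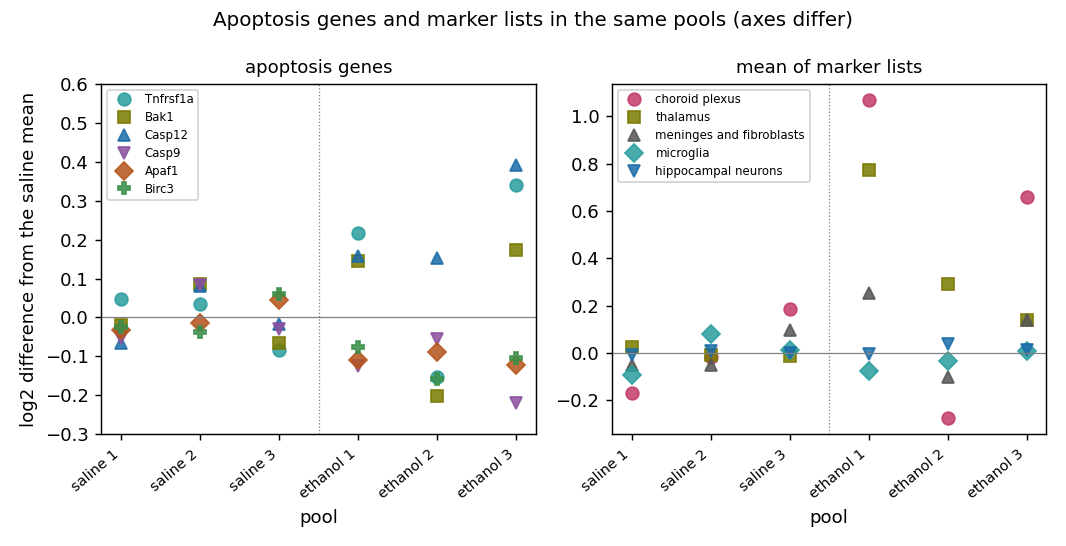
Left, 6 apoptosis genes by pool, plotted as log2 expression minus the gene's saline mean; right, the mean of 5 marker lists on the same scale but a wider axis. Tnfrsf1a and Bak1 have ethanol pool 2 lowest, as the choroid plexus list does at -0.28, while Casp9, Apaf1 and Birc3 lie below 0 in all 3 ethanol pools.

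Tradd, the adaptor of that receptor, stood at 5.69, 5.76 and 5.94 in the saline pools and at 5.65, 5.73 and 5.67 in the ethanol pools. Saline pool 3 was the highest, and the change was -0.12 ± 0.06 (SE). Tradd passed the unadjusted threshold with array weights and without saline pool 1, with a change of -0.17 in each. Without saline pool 3 its change was -0.05. Fadd, the adaptor that recruits caspase-8, had a change of 0.04 ± 0.06. Fas, a death receptor, lay below the receptor level with a change of -0.01 ± 0.04. Cflar, which encodes the caspase-8 inhibitor FLIP and is the neighbour of Casp8 on chromosome 1, had a change of 0.04 ± 0.06 in its brightest probe set and of -0.04 and 0.10 in the other 2. Like Casp8, it was lowest in saline pool 1 and highest in saline pool 2, at 6.66 and 6.89. Saline pool 1 held the lowest of the 6 values in 11 of the 35 genes (31.4%), and in 18.4% of all genes. Aatf, a nuclear factor that opposes apoptosis, had a change of -0.01 ± 0.04.

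The intervals show how precisely changes in array signal were measured. The 95% intervals of 32 of the 35 changes (91.4%) lay within 1.2-fold in both directions, as did those of 92.0% of all genes. The exceptions were Casp12, Tnfrsf1a, with an interval from 0.92 to 1.31 times the saline level, and Tradd, with one from 0.832 to 1.02. Casp1, Casp4, Bik, Bcl2l11, Bbc3, Pmaip1 and Fas are among the 32 but lay below the receptor level. Their intervals describe signal near background and do not bound a change of the transcript. Single intervals are not adjusted for the number of genes. The median SD within groups was 0.0649 over the 35 genes and 0.0604 over all genes, and the median size of a change, regardless of sign, was 0.0475 and 0.0368.

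**Figure D3:**
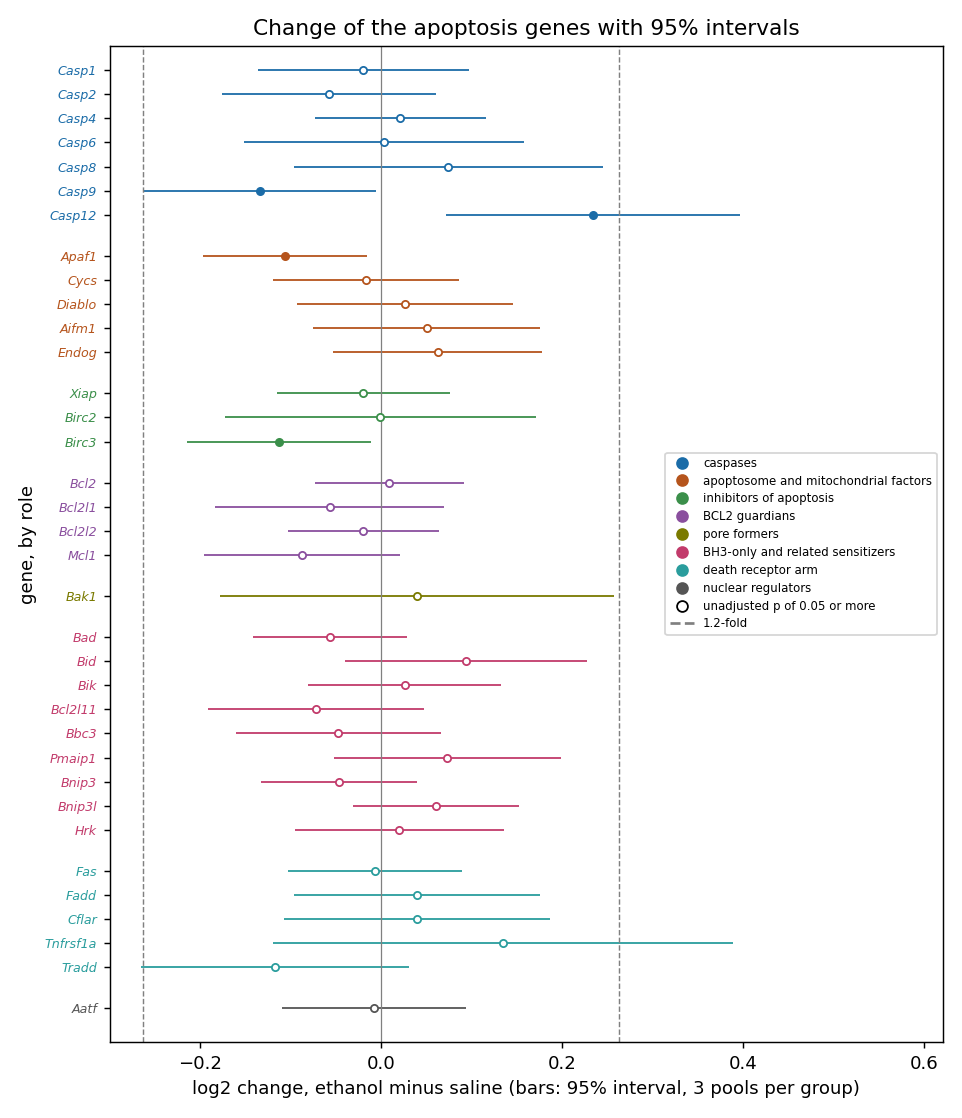
Log2 change of each apoptosis gene (ethanol minus saline, 3 pools per group) with its 95% interval, coloured by role; filled symbols are genes past the unadjusted threshold and dashed lines mark 1.2-fold. The intervals of Casp12, Tnfrsf1a and Tradd reach past a dashed line, and those of Casp9, Apaf1 and Birc3 end just below 0.

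Of 57 genes listed around the core pathway, such as death ligands, kinases, channels of the mitochondrial membrane and nucleases, 53 were measured. Past the unadjusted threshold in limma 0 were higher and 1 was lower, with 0 after adjustment. Over all genes 2.8% were higher and 2.41% lower. The ethanol pools lay above the saline pools in 3 of the 53 and below in 1, against 5.35% and 5.09% of all genes. The median log2 change was 0.01. Mapk8, which encodes the stress kinase JNK1, stood at 10.37, 10.45 and 10.41 in the saline pools and at 10.30, 10.36 and 10.26 in the ethanol pools. Its groups did not overlap, with a change of -0.11 ± 0.04 (SE) and an adjusted p of 0.931 in limma. Of 20 genes of pyroptosis, necroptosis and stress of the endoplasmic reticulum, 0 passed the unadjusted threshold, in either direction, in limma. Over all genes 5.22% did, and the median change of the 20 was -0.02. This list holds inflammasome genes, which act with Casp1, and the chaperones and transcription factors of the unfolded protein response, which have been linked to Casp12.

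**Figure D4:**
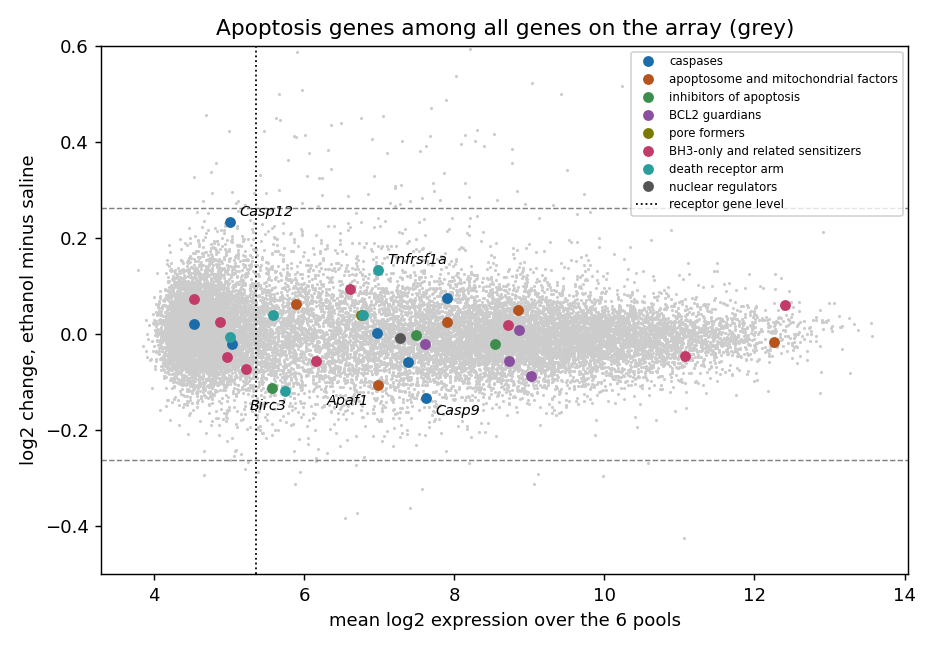
Log2 change (ethanol minus saline) against mean log2 expression over the 6 pools for the 35 apoptosis genes, coloured by role, and all other genes in grey, of which 9 lie outside the vertical range. The dotted line marks the receptor level of 5.36, left of which lie 8 of the 35 genes, Casp12 among them, and dashed lines mark 1.2-fold, which none of the 35 reaches.

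Levels placed 8 of the 35 genes (22.9%) below the receptor level, against 37.6% of all genes. They were Casp1, Casp4, Casp12, Bik, Bcl2l11, Bbc3, Pmaip1 and Fas. The means of the saline pools ranged from 4.497 for Pmaip1 to 12.37 for Bnip3l, but levels of different probe sets depend on their probes and were not compared between genes.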

How the data were processed

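The authors ran RMA on the Affymetrix Mouse Gene ST arrays (background correction, equal distributions across arrays, 1 summary per probe set) and deposited log2 values, used here unchanged. Such processing can hide a shift shared by most genes. The software version is not given in the sources used here. Groups and replicate numbers came from the labels. Ethanol was compared with saline over 23410 probe sets with a gene symbol, by a two-sided moderated fit without covariates (limma 3.58.1, R 4.3.3), after the methods, which name an ANOVA; its 2-group form is called the methods' t-test. Adjusted p-values are Benjamini-Hochberg over all tested probe sets. With 3 pools per group an exact permutation test has a smallest p of 0.1, and none was used. Genes were named through the platform annotation, with the brightest single-symbol probe set per gene. Background percentages refer to 19938 genes. The number of arrays limits precision (median SE 0.049 on the log2 scale). The procedure was tested on simulated data. All 35 measured members may be named, with values in every pool for those past the unadjusted threshold, without overlap, or with the largest spread within groups in their role. The members and all lists, including markers, were chosen with earlier results of these data known. Alternatives were the methods' t-test, a replicate block, quantile normalization, centring on medians, array weights, an intensity trend, averaging the probe sets of a gene, all rows, single-symbol probe sets, filters at the receptor and median levels, and omission of each pool. Arrays of miRNAs, DNA methylation and histone marks were not analysed here. Figures were drawn with matplotlib 3.10.9.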

Additional observations from a re-analysis of the deposited data

How the results depend on the processing

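Of the 35 genes, 4 passed the unadjusted threshold. The count was 3 or 4 under each other alternative that kept all pools, except for 2 among the 19 genes above the median level and 1 (Casp12) with an intensity trend. Without 1 pool it ranged from 1 to 5, at 2 without saline replicate 3, 1 without ethanol replicate 3 and 5 without saline replicate 1 or ethanol replicate 2. No gene passed after adjustment under any alternative, including the methods' t-test, in which 3 passed unadjusted (Apaf1, Birc3 and Bad). Whether pools with the same replicate number were matched by litter is unknown. The deviations of same-numbered pools from their group means correlated at -0.076, -0.009 and 0.059 across genes. Saline pool 1 correlated best with ethanol pool 2, at 0.167. With 3 pools per group the deviations within a group depend on each other, so the correlations cannot decide whether the pools were matched. With the replicate block 3 genes passed. For Casp12, Apaf1, Birc3 and Casp9 leaving out 1 pool could not turn the sign, since their saline and ethanol pools did not overlap. Most other alternatives changed the test alone and left their log2 change as it was. Median centring, quantile normalization and array weights could move it, and the sign was kept there. Casp12, Apaf1, Birc3 and Casp9 passed in 14 of 15, 12 of 17, 12 of 16 and 7 of 17, where filters on dim probe sets leave some genes out. Small changes turned in sign for Cycs (0.0115 with array weights), Birc2 (0.00096 with median centring, 0.0016 with quantile normalization, 0.0020 with array weights) and Bnip3 (0.0152 with the mean of its probe sets). With 1 pool left out, ranges that cross 0 were -0.0585 to 0.0253 for Casp1, -0.00309 to 0.0372 for Casp4, -0.0520 to 0.0748 for Casp6, -0.0449 to 0.00858 for Cycs, -0.00804 to 0.0690 for Diablo, -0.0429 to 0.00379 for Xiap, -0.0615 to 0.0769 for Birc2, -0.0282 to 0.160 for Bak1, -0.00521 to 0.0567 for Bik, -0.0156 to 0.0633 for Hrk, -0.0329 to 0.0151 for Fas, -0.00444 to 0.0873 for Fadd, -0.0143 to 0.101 for Cflar and -0.0414 to 0.0195 for Aatf. The cause of these differences was not tested. Background correction could not be varied on RMA values, and genes below the receptor level have little signal over background.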
